A study of Mus musculus with 12 samples.

Results

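The EGF receptor ligands and receptors are described here in colon tumours of bone marrow chimeric mice. The 9 genes were taken by name: 6 ligand genes (Areg, Ereg, Hbegf, Tgfa, Btc and Egf) and 3 receptor genes (Egfr, Erbb2 and Erbb3), out of 24062 genes measured. All mice were of the Balb/c background. Wild-type (WT) or St2-/- hosts were lethally irradiated and given WT or St2-/- bone marrow, and tumours were induced by 6 weekly injections of azoxymethane (AOM), a colon carcinogen, at 10 mg/kg. St2, also named Il1rl1, encodes the receptor of interleukin-33. Each group is written as marrow => host, and the 4 groups WT => WT, St2-/- => WT, WT => St2-/- and St2-/- => St2-/- had 3 tumours each, labelled as biological replicates. Tumours were collected 13 or 14 weeks after the last injection, and 11 came from males and 1, WT => St2-/- replicate 3, from a female. The labels gave neither the ages of the mice nor the exons missing from the St2-/- allele. Irradiation removes most blood cells of the host but leaves its epithelium and stroma, and some long-lived tissue lymphocytes can also survive it.

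Ligands of the EGF family are made as membrane-bound precursors, are cut free by proteases and bind receptor tyrosine kinases at the surface of the same or a nearby cell. Amphiregulin (Areg), epiregulin (Ereg), heparin-binding EGF-like growth factor (Hbegf), transforming growth factor alpha (Tgfa), betacellulin (Btc) and EGF itself bind EGFR. ERBB2 has no known ligand and signals as the partner of the other receptors, and ERBB3 has little kinase activity of its own. In the intestine the pathway drives growth and repair of the epithelium. Amphiregulin is also made by innate lymphoid cells and regulatory T cells that carry ST2, after they meet interleukin-33.

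Library totals lay between 10293818 and 12962496 gene counts, so the depth was similar in all 12 libraries. Values are in CPM, gene counts scaled to equal library totals with TMM factors for composition. Il1rl1 lay between 36.5 and 275 CPM in WT hosts and between 7.30 and 25.0 CPM in St2-/- hosts, without overlap. The epithelial markers Epcam and Cdh1 were at 1104 CPM or more and at 669.8 CPM or more in all libraries, and 6 of the 8 markers of enteric neurons and glia were at 0 in at least 1 library. The labels name no batch or cohort, but the sample numbers of WT hosts and St2-/- hosts differed in length. If the hosts were separate cohorts, a difference between cohorts and one between hosts cannot be told apart. In these bulk samples, fewer cells of a type and less RNA per cell cannot be told apart.

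The genes Ereg, Areg and Btc stand in a row on chromosome 5 (GRCm38, GENCODE M21). Ereg lies from 91074622 to 91093646 and Areg from 91139599 to 91148432, both on the plus strand and 46.0 kb apart. Btc follows 208.8 kb further on, from 91357261 to 91402994 on the minus strand. Tgfa lies on chromosome 6 from 86195223 to 86275719 and Egf on chromosome 3 from 129677565 to 129755316. Egfr and Erbb2 share chromosome 11, from 16752203 to 16918158 and from 98412470 to 98437716, and Erbb3 lies on chromosome 10 from 128567523 to 128589652. Egf overlaps 6330410L21Rik and Erbb2 overlaps Mien1 on the opposite strand. The strand setting of the counting is not known, so their counts are less certain.

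Promoter windows from RefSeq (GRCm38.p6) ran from 250 bases before to 50 bases after the start of transcription. They are described for 6 of the 9 genes, all but Ereg, Hbegf and Erbb3. Areg and its neighbour Btc are shown, because Areg had the largest difference between hosts among the 9 genes and Btc is the nearest neighbour with a window. Capitals mark a full cyclic AMP response element, TGACGTCA, searched on both strands.
Areg, plus strand, chr5:91139349-91139648: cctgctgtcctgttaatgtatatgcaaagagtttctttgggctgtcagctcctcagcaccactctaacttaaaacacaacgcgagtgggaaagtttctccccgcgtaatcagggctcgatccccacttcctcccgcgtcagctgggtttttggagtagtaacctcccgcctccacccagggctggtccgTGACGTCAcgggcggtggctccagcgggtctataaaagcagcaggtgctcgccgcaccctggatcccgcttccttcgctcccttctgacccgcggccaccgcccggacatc
Btc, minus strand, chr5:91402945-91403244: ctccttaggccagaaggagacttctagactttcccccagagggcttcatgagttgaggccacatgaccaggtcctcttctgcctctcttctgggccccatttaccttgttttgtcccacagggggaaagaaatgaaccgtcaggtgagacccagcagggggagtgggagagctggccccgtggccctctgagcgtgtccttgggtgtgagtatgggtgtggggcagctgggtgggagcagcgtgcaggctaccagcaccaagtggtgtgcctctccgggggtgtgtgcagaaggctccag
The Areg window held this element once, starting 61 bases before the start of transcription. It was in 588 of 32851 RefSeq windows of the same length (1.79%). The windows of Btc, Tgfa, Egf, Egfr and Erbb2 did not hold these letters. The AP-1 letters TGANTCA and the interferon-gamma activated site TTCNNNGAA, each searched on both strands, were in 7.81% and 8.30% of all windows and in none of those of the 6 genes. A match of letters is a description and says nothing of binding.

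**Figure D1:**
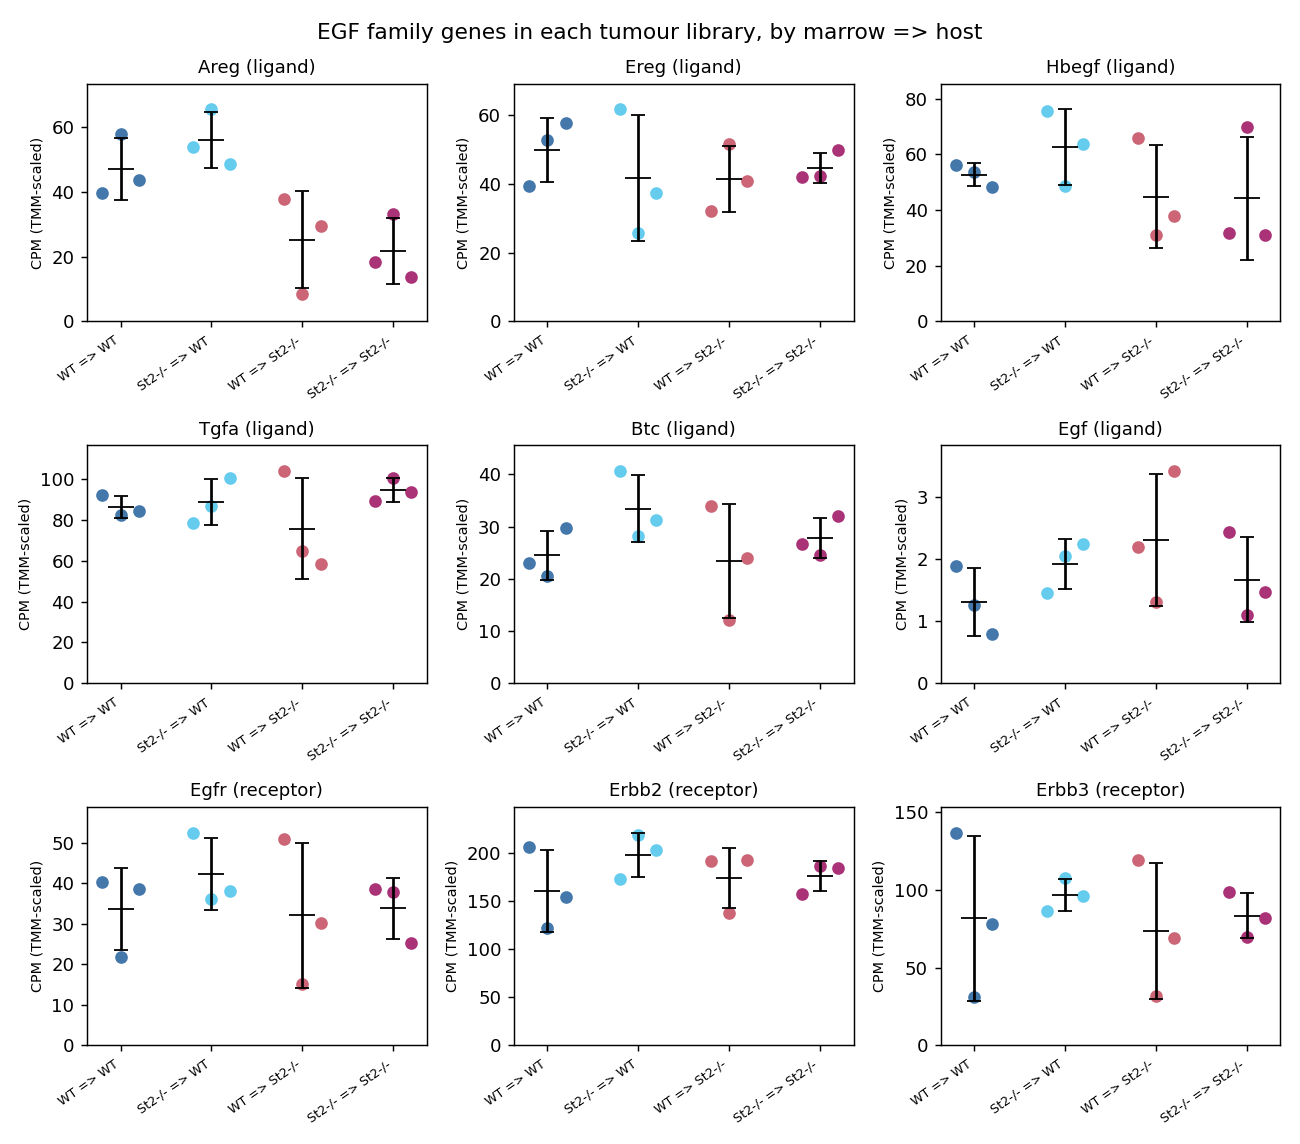
CPM of each of the 9 genes (y axis, from 0) in the 12 tumour libraries, by marrow => host group (x axis). Points are libraries, the dash is the group mean and the bars are 1 SD (n = 3). Areg is the gene in which the 6 St2-/- hosts (8.52 to 37.7 CPM) all lie below the 6 WT hosts (39.5 to 65.4 CPM).

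Levels were compared between genes per kilobase of exon. Among ligands, Areg had the highest mean, at 30.8 ± 14.6 CPM per kilobase (SD over all 12 libraries), with 42.3 ± 7.83 in WT hosts and 19.3 ± 9.56 in St2-/- hosts (n = 6 each). Tgfa followed at 13.3 ± 2.16, Ereg at 10.7 ± 2.54, Hbegf at 10.6 ± 3.27 and Btc at 6.03 ± 1.61 CPM per kilobase. Neighbours in this order overlapped in their ranges, from Areg (7.01 to 53.8) to Btc (2.67 to 8.997). Egf was the exception, at 0.160 ± 0.0642 CPM per kilobase, and its highest library (0.304) was below every library of the other ligands. In reads, Egf had 10 to 39 counts in a library, the fewest of the 9 genes, so its values are the most limited by depth. Among receptors, Erbb2 was at 33.9 ± 5.58 CPM per kilobase, Erbb3 at 13.9 ± 5.25 and Egfr at 3.13 ± 0.965. The ranges of Egfr (1.34 to 4.63), Erbb3 (5.11 to 22.7) and Erbb2 (23.3 to 41.8) did not overlap. With the length of the longest transcript in place of all exons, Tgfa (19.1) and Hbegf (17.7) came above Erbb3, and Egf reached 0.379 CPM per kilobase.

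Between St2-/- hosts and WT hosts, averaged over both marrows, none of the 9 genes passed edgeR's quasi-likelihood test (0 of 9), against 1.37% of all 15060 genes tested. At an unadjusted p under 0.05, 1 gene passed, Areg, where 20.6% of all genes did. The DESeq2 Wald test and limma-voom with quality weights each called 1, again Areg. Those tools called 7.94% and 12.3% of all genes in this comparison. The median log2 fold change was -0.12 over the 6 ligands and -0.18 over the 3 receptors, beside 0.00 (-0.0015) over all genes tested.

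Areg had the largest difference. It was at 39.5, 57.8 and 43.6 CPM in WT => WT and at 53.6, 65.4 and 48.5 CPM in St2-/- => WT. It was at 37.7, 8.52 and 29.3 CPM in WT => St2-/- and at 18.4, 33.2 and 13.6 CPM in St2-/- => St2-/-. All St2-/- hosts were below all WT hosts, with a narrow gap between the highest of the former (37.7) and the lowest of the latter (39.5). Over all genes tested, 1.71% were lower in St2-/- hosts without overlap. Group means were 47.0 ± 9.59 and 55.8 ± 8.68 CPM in the WT hosts with WT and St2-/- marrow, and 25.2 ± 15.0 and 21.7 ± 10.2 CPM in the St2-/- hosts (SD, n = 3 each). The log2 fold change between hosts was -1.13 (SE 0.33, edgeR unadjusted p = 0.00562, adjusted p = 0.116). The DESeq2 Wald test gave an adjusted p of 0.0163 and limma-voom 0.0104, at log2 fold changes of -1.13 and -1.24. With 1 library left out at a time, the log2 fold change stayed between -1.35 and -0.92 and the edgeR adjusted p between 0.064 and 0.264.

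The difference in Areg had the same direction under either marrow. Under WT marrow the log2 fold change between hosts was -0.90 (SE 0.46, edgeR adjusted p = 0.356), and it was -0.49 without WT => St2-/- replicate 2, the library with the lowest Areg. Under St2-/- marrow it was -1.36 (SE 0.47, unadjusted p = 0.0142, adjusted p = 0.356). With the epithelial score as a covariate it was -0.46, and with the smooth muscle score -2.05. The 10 smooth muscle markers had a median log2 fold change between hosts of 2.44 under WT marrow and -2.05 under St2-/- marrow. EdgeR called 0 of them in either, beside 0.159% and 0.0598% of all genes. At an unadjusted edgeR p under 0.05, 8 of 10 were higher under WT marrow and 7 of 10 lower under St2-/- marrow. Of all genes, 16.7% and 12% had such a p. For the difference of the host effects, 10 of 10 markers were below 0 at such a p (7.6% of all genes), with 0 called. The difference between the host effects on Areg was -0.46 (SE 0.65, adjusted p = 0.878), and it ranged from -0.90 without St2-/- => St2-/- replicate 2 to -0.0239 without WT => St2-/- replicate 1. St2-/- => St2-/- against WT => WT, which shares libraries with these comparisons, gave -1.11 (SE 0.46, adjusted p = 0.332). Between St2-/- marrow and WT marrow, averaged over hosts, the log2 fold change of Areg was 0.02 (SE 0.32, adjusted p = 0.999).

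The content of epithelial markers moved with Areg. The mean log2 CPM of 10 epithelial markers was 8.94 to 9.76 in WT hosts and 8.18 to 9.39 in St2-/- hosts. All 10 of these markers had a log2 fold change below 0 between hosts (median -0.49). Of these, 0 were called by edgeR and 5 had an unadjusted edgeR p under 0.05, beside 1.37% and 20.6% of all genes. Krt20, a keratin of mature colonocytes, had the lowest value, at -1.67 (SE 0.47, edgeR adjusted p = 0.105). With this epithelial score as a covariate, the log2 fold change of Areg between hosts was -0.58 (SE 0.33, edgeR adjusted p = 0.541). Over the 12 libraries, Areg correlated with the score at a Pearson r of 0.85 (permutation p = 0.00022, adjusted p = 0.0198 over 90 relations of the 9 genes with 10 marker lists) and a Spearman rho of 0.76 (permutation p = 0.00656, adjusted p = 0.216). The permutations ignored host genotype, so a shift between hosts that Areg and the score share counts towards these p. Without the 2 libraries farthest from the median score, r was 0.68. Within hosts, r was 0.07 in the 6 WT hosts and 0.93 in the 6 St2-/- hosts. It therefore did not hold within WT hosts. It was the 1 relation of the 90 that passed by Pearson r.

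Marker lists of other cell types were compared between hosts in the same way. Of the mast cell markers, 8 of 8 had a log2 fold change above 0 (median 1.69), from 0.05 for Cma1 (SE 0.35) upwards, with the list at 1.83 to 3.90 mean log2 CPM in WT hosts and 3.54 to 6.56 in St2-/- hosts. The list of innate lymphoid and T cell genes was at 2.53 to 3.62 and at 1.11 to 2.92, with 7 of 7 genes below 0 (median -0.44), and neutrophil genes were at 2.43 to 5.03 and at 0.365 to 4.06. Macrophage and monocyte markers had 8 of 8 genes below 0 (median -0.56) and endothelial markers 6 of 6 above 0 (median 0.44). No gene of these 5 lists was called by edgeR between hosts. An unadjusted p under 0.05 was found for 6 of 8 mast cell, 2 of 7 innate lymphoid and T cell, 3 of 5 neutrophil, 2 of 8 macrophage and 2 of 6 endothelial markers, beside 20.6% of all genes. Across the 12 libraries, Areg had r = -0.69 with the mast cell score (permutation p = 0.0157, adjusted p = 0.158). With neutrophil genes r was 0.66 (permutation p = 0.0204, adjusted p = 0.167), but -0.57 within WT hosts and 0.77 within St2-/- hosts. With innate lymphoid and T cell genes r was 0.46 (0.70 and -0.23 within hosts). Its rho was 0.74 (permutation p = 0.00763, adjusted p = 0.216). Macrophage and endothelial r were 0.46 and -0.34. Beyond these correlations, the part of these cell types in the level of Areg was not tested.

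**Figure D2:**
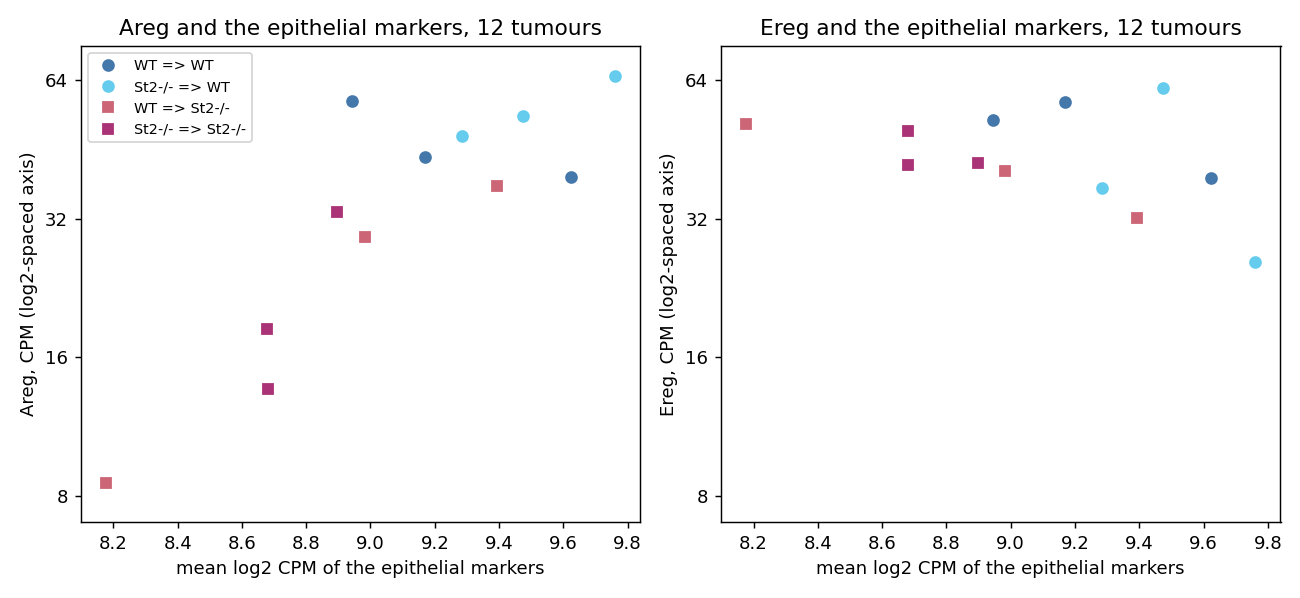
CPM of Areg (left) and Ereg (right) on log2-spaced axes against the mean log2 CPM of 10 epithelial markers, in 12 tumours. Circles are WT hosts and squares St2-/- hosts. Areg is lowest (8.52 CPM) in the tumour with the lowest epithelial score (8.18), where Ereg is at 51.4 CPM.

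Ereg, the nearest neighbour of Areg in the genome and among its closest relatives, did not share this pattern. It was at 39.3, 52.6 and 57.5 CPM in WT => WT and at 61.6, 25.7 and 37.3 CPM in St2-/- => WT. In the St2-/- hosts it was at 32.2, 51.4 and 40.6 CPM with WT marrow and at 41.9, 42.3 and 49.6 CPM with St2-/- marrow. The St2-/- hosts lay inside the range of the WT hosts. Hosts differed by a log2 fold change of -0.08 (SE 0.20, adjusted p = 0.858 by edgeR), and marrows also by -0.08 (SE 0.20, adjusted p = 0.999). In WT => St2-/- replicate 2, the library with the least Areg, Ereg was at the highest level of its group.

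Hbegf, which can bind heparan sulphate at the cell surface, was at 56.1, 53.8 and 48.2 CPM in WT => WT and at 75.7, 48.6 and 63.9 CPM in St2-/- => WT. It was at 65.8, 31.0 and 37.8 CPM in WT => St2-/- and at 31.7, 69.9 and 31.0 CPM in St2-/- => St2-/-. In each group of St2-/- hosts, 1 tumour was inside the range of the WT hosts and the others lay below it, 4 of 6 in all. The log2 fold change between hosts was -0.37 (SE 0.25, edgeR adjusted p = 0.421), with -0.23 under WT marrow (SE 0.35) and -0.51 under St2-/- marrow (SE 0.35, adjusted p = 0.561). With 1 library left out, the value under WT marrow lay between -0.62 (without WT => St2-/- replicate 1) and -0.0235 (without replicate 2 of that group), and under St2-/- marrow between -1.0003 (without St2-/- => St2-/- replicate 2) and -0.29 (without replicate 1 of that group). Limma-voom, which gives libraries unequal weight, called it under St2-/- marrow at -0.89 (adjusted p = 0.0454), where it called 13.3% of all genes. Without St2-/- => St2-/- replicate 2 the difference between hosts was -0.62, and without WT => St2-/- replicates 2 and 3 it was -0.09.

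Tgfa, the ligand with the least spread between libraries of a group, was at 92.2, 82.5 and 84.2 CPM in WT => WT and at 78.7, 86.7 and 101 CPM in St2-/- => WT. It was at 104, 64.8 and 58.2 CPM in WT => St2-/- and at 89.1, 101 and 93.7 CPM in St2-/- => St2-/-. WT => St2-/- replicates 2 and 3 were the lowest of the 12, and the other groups overlapped. Between hosts the log2 fold change was -0.05 (SE 0.14, edgeR adjusted p = 0.873), and for the marrow it was 0.18 (SE 0.14, adjusted p = 0.999). Its SD of log2 CPM within groups was 0.25, beside a median of 0.31 over all genes tested, 0.68 for Areg and 0.74 for Erbb3.

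Btc was at 23.1, 20.6 and 29.8 CPM in WT => WT and at 40.7, 28.3 and 31.3 CPM in St2-/- => WT. In St2-/- hosts it was at 34.0, 12.1 and 24.1 CPM with WT marrow and at 26.7, 24.6 and 32.0 CPM with St2-/- marrow. The hosts overlapped in 5 of 6 St2-/- tumours, and WT => St2-/- replicate 2 was below all others. For the host, Btc had a log2 fold change of -0.17 (SE 0.22, adjusted p = 0.710 by edgeR), and for the marrow one of 0.35 (SE 0.22, adjusted p = 0.999). Without WT => St2-/- replicate 2 the value for the marrow was 0.19, and without WT => St2-/- replicate 1 it was 0.52.

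Egf was at 1.89, 1.26 and 0.796 CPM in WT => WT and at 1.46, 2.06 and 2.25 CPM in St2-/- => WT. It was at 2.20, 1.30 and 3.43 CPM in WT => St2-/- and at 2.45, 1.11 and 1.47 CPM in St2-/- => St2-/-. All 4 groups overlapped, with 2 St2-/- hosts above all WT hosts. It was the 1 gene of the 9 with a log2 fold change above 0 between hosts, at 0.31 (SE 0.34, edgeR adjusted p = 0.647). The value was 0.81 under WT marrow (SE 0.49, adjusted p = 0.414) and -0.20 under St2-/- marrow (SE 0.48, adjusted p = 0.891), and the difference between these was -1.01 (SE 0.68, adjusted p = 0.741).

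The make-up of the ligand transcripts differed between hosts mainly through Areg. Per kilobase of exon, Areg made up 49.4% ± 6.10 of the sum of the 6 ligands in WT hosts and 31.7% ± 10.2 in St2-/- hosts (SD, n = 6 each). The ranges, 44.5% to 59.9% and 18.2% to 42.8%, did not overlap. Tgfa made up 16.0% ± 2.56 and 23.1% ± 4.57, and Ereg 13.0% ± 3.77 and 19.5% ± 7.71, so their shares were higher in St2-/- hosts at similar levels. The sum of the 6 ligands was 85.3 ± 8.12 CPM per kilobase in WT hosts and 57.9 ± 14.3 in St2-/- hosts, with ranges of 73.1 to 95.9 and 38.6 to 76.1. With the longest transcript as the length, the share of Areg was 42.1% and 26.0% and that of Tgfa 19.5% and 27.1%, so in St2-/- hosts the mean share of Tgfa was then above that of Areg. These shares are given as a description, with no test.

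The receptors varied between tumours more than between groups. Egfr, the receptor of all 6 ligands, was at 40.4, 21.8 and 38.7 CPM in WT => WT and at 52.5, 36.1 and 38.2 CPM in St2-/- => WT. It was at 50.9, 15.2 and 30.1 CPM in WT => St2-/- and at 38.6, 37.7 and 25.1 CPM in St2-/- => St2-/-. St2-/- hosts differed from WT hosts by a log2 fold change of -0.20 (SE 0.27, adjusted p = 0.725 by edgeR), and St2-/- marrow from WT marrow by 0.20 (SE 0.27, adjusted p = 0.999). The low tumours were WT => St2-/- replicate 2 and WT => WT replicate 2, 1 from each host genotype.

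Erbb2 was at 206, 121 and 154 CPM in WT => WT and at 173, 218 and 202 CPM in St2-/- => WT. It was at 192, 137 and 192 CPM in WT => St2-/- and at 157, 186 and 184 CPM in St2-/- => St2-/-. All St2-/- hosts lay inside the range of the WT hosts. The host difference in Erbb2 was a log2 fold change of -0.03 (SE 0.14, adjusted p = 0.928 by edgeR), and that of the marrow 0.16 (SE 0.14, adjusted p = 0.999).

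Erbb3 was at 137, 30.7 and 78.1 CPM in WT => WT and at 86.5, 108 and 96.2 CPM in St2-/- => WT. It was at 119, 31.9 and 69.3 CPM in WT => St2-/- and at 98.9, 69.6 and 81.8 CPM in St2-/- => St2-/-. The lowest tumour of each host genotype was the same as for Egfr. Their fibroblast marker scores were the highest and the third highest of the 12 (7.36 and 6.49 mean log2 CPM). Their epithelial scores were the lowest of their host genotype (8.94 and 8.18). Erbb3 had r = -0.69 with the fibroblast score and 0.68 with the epithelial score (permutation p = 0.0119 and 0.0137, adjusted p = 0.158 each). Beyond these correlations, the part of either in the level of Erbb3 was not tested. For Erbb3 the hosts differed by a log2 fold change of -0.18 (SE 0.36, adjusted p = 0.812 by edgeR), and the marrows by 0.21 (SE 0.36, adjusted p = 0.999).

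**Figure D3:**
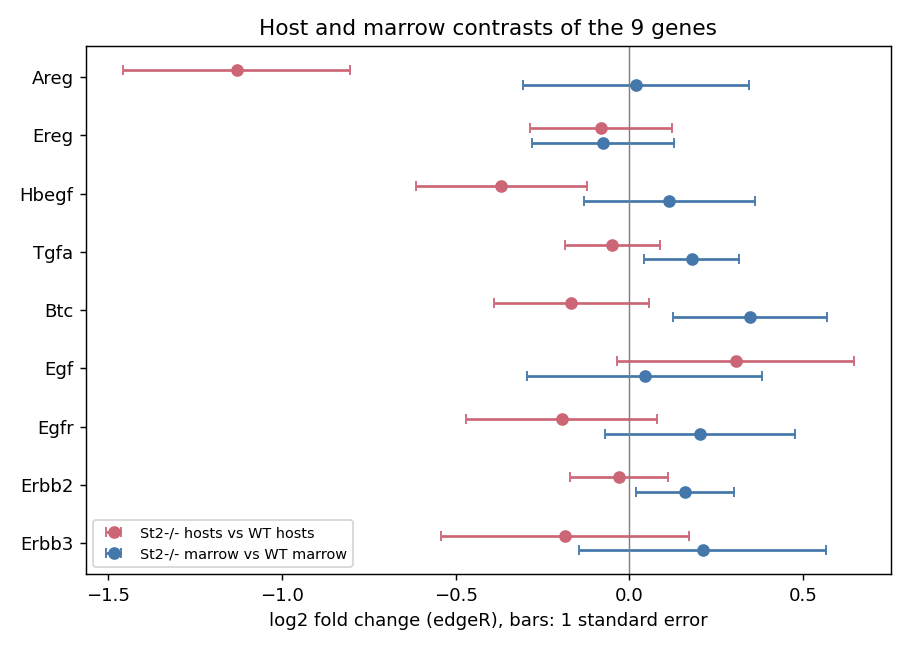
Log2 fold changes of the 9 genes (x axis; bars are 1 standard error) for St2-/- hosts against WT hosts and for St2-/- marrow against WT marrow, from edgeR over all 12 libraries. Areg between hosts (-1.13) lies apart from the other values, which range from -0.37 to 0.35.

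Between marrows none of the 9 genes was called by edgeR (0 of 9, and 0 at an unadjusted p under 0.05), against 0.0% of all genes called and 2.76% at an unadjusted p under 0.05. DESeq2 and limma-voom called 0 as well. The log2 fold changes lay between -0.08 (Ereg) and 0.35 (Btc). In WT hosts they lay between -0.26 and 0.55 and in St2-/- hosts between -0.46 and 0.32, with 0 of 9 called by edgeR, DESeq2 or limma-voom and 0 at an unadjusted edgeR p under 0.05 in either. Of all genes, edgeR called 0.0% in both, and 6.04% and 4.05% had an unadjusted p under 0.05. DESeq2 called 0.0% and 0.113% of all genes there and limma-voom 0.0% and 0.0266%.

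Between hosts under WT marrow, 0 of 9 were called by edgeR, DESeq2 and limma-voom, which called 0.159%, 4.95% and 2.08% of all genes, and 0 of 9 had an unadjusted edgeR p under 0.05 (16.7% of all genes). Under St2-/- marrow, 0 of 9 were called by edgeR and DESeq2 and 2, Areg and Hbegf, by limma-voom, against 0.0598%, 1.74% and 13.3% of all genes. Areg was the 1 gene with an unadjusted p under 0.05 there (12% of all genes). For St2-/- => St2-/- against WT => WT, 0 were called by edgeR and DESeq2 and 1, Areg, by limma-voom, against 0.0266%, 3.14% and 11.4% of all genes, and Areg alone of the 9 had an unadjusted p under 0.05 (13.7% of all genes). For the difference of the host effects, 0 of 9 were called by edgeR, DESeq2 and limma-voom, against 0.0%, 0.618% and 0.0266% of all genes, and 0 had an unadjusted p under 0.05 (7.6% of all genes).

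The 9 genes were also compared with each other over the 12 tumours. Of 36 pairs, 4 passed at an adjusted p under 0.05 by Pearson r of log2 CPM, and 0 by Spearman rho (lowest adjusted p = 0.0637). Erbb2 and Erbb3, which form a signalling pair, had r = 0.83 (permutation p = 0.00183, adjusted p = 0.0248) and rho = 0.66 (permutation p = 0.0219, adjusted p = 0.178). Within WT hosts and St2-/- hosts r was 0.93 and 0.68. Without the 2 libraries farthest from the median of Erbb2 it was 0.41, so the relation rests in part on the tumours with low levels. Egfr and Erbb3 had r = 0.82 (permutation p = 0.00207, adjusted p = 0.0248) and rho = 0.69 (permutation p = 0.0150, adjusted p = 0.178). Within hosts r was 0.78 and 0.91, and it was 0.42 without the 2 libraries farthest from the median of Egfr. Btc and Egfr had r = 0.82 (permutation p = 0.00179, adjusted p = 0.0248) and rho = 0.61 (permutation p = 0.0406, adjusted p = 0.208). Within hosts r was 0.82 and 0.81, and it was 0.47 without the 2 libraries farthest from the median of Btc.

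Areg and Hbegf had r = 0.77 (permutation p = 0.00286, adjusted p = 0.0257) and rho = 0.59 (permutation p = 0.0491, adjusted p = 0.208). This r did not hold within WT hosts (-0.05) but was 0.81 within St2-/- hosts. It was 0.58 without the 2 libraries farthest from the median of Areg. Ereg stood apart, with r below 0 in all 8 of its pairs. The lowest was with Erbb2, at r = -0.68 (permutation p = 0.0144, adjusted p = 0.0943) and rho = -0.83 (permutation p = 0.00177, adjusted p = 0.0637). This r was -0.72 in WT hosts and -0.59 in St2-/- hosts. It was -0.72 without the 2 libraries farthest from the median of Ereg. Areg and Ereg had r = -0.26 (permutation p = 0.421, adjusted p = 0.523; rho = -0.08, permutation p = 0.800, adjusted p = 0.847), with -0.33 in WT hosts and -0.86 in St2-/- hosts.

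**Figure D4:**
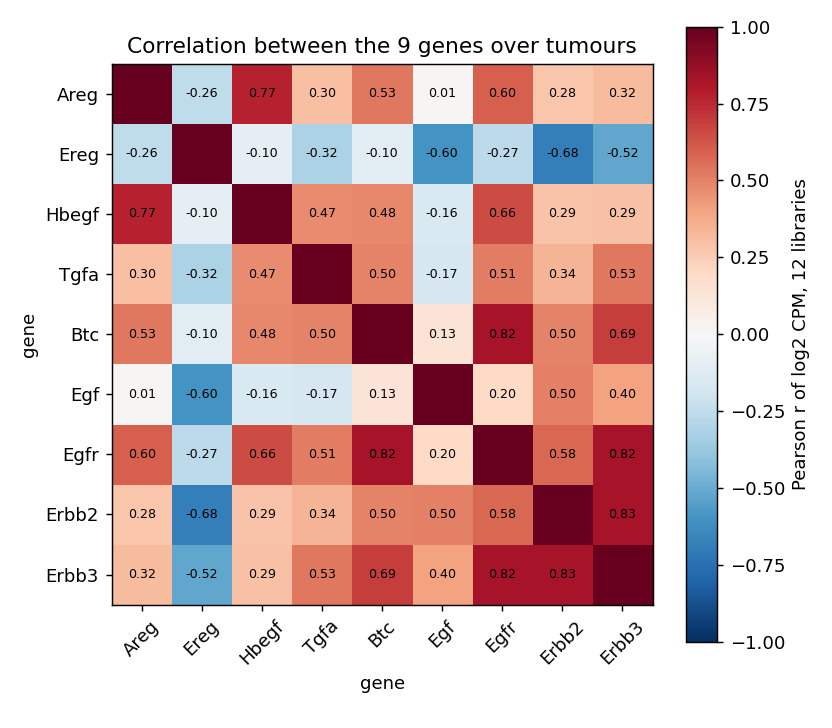
Pearson r of log2 CPM between each pair of the 9 genes over 12 tumour libraries (both axes list genes, the colour bar gives r from -1 to 1). Erbb2 with Erbb3 (0.83) and Btc with Egfr (0.82) are highest, and the row of Ereg is below 0 throughout.

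For each of the 9 genes, the genes most alike over the 12 tumours were listed by Pearson r of log2 CPM, as a description with no test. For Areg they were Ebp, which encodes an enzyme of cholesterol synthesis (r = 0.97), S100a10, a partner of annexin A2 (0.96), and Plin2, which coats lipid droplets (0.96). Within WT hosts these values were 0.74, 0.67 and 0.54 and within St2-/- hosts 0.98, 0.97 and 0.98. For Ereg they were Medag (0.92), Eda2r, a receptor of the tumour necrosis factor family (0.86), and Scd3, a fatty acid desaturase (0.85). For Hbegf they were Tmem43 (0.93), Blcap (0.92) and S100a14 (0.90). For Tgfa they were Gpd2, Jup, a protein of cell junctions, and Pafah1b1 (0.93 each). For Btc they were Met, the receptor of hepatocyte growth factor (0.91), Zbtb37 (0.89) and Cdcp1 (0.89), and Met was also among the nearest to Egfr (0.93), with the calpain inhibitor Cast (0.93) and Kctd10 (0.93). For Erbb2 they were Btg2 (0.92), Chdh (0.91) and the Wnt receptor gene Fzd5 (0.90), and for Erbb3 Lrba, Itpr3, a calcium channel of the endoplasmic reticulum, and Foxo3 (0.96 each). Egf had the least close neighbours, Hmcn1 (0.88), Setd5 (0.84) and Slc17a4 (0.83). All points share the same libraries and the same depth scaling.

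Other ligands and receptors of the family were scarce. Epgn, which encodes epigen, another EGFR ligand, had 5 to 23 counts in a library and a log2 fold change of -0.22 between hosts (SE 0.40, edgeR adjusted p = 0.793). Nrg1 and Nrg4, neuregulins that bind ERBB3 or ERBB4, had 39 to 198 and 15 to 36 counts, and Nrg4 was at 0.12 between hosts (SE 0.28, adjusted p = 0.851). Erbb4, Nrg2 and Nrg3 were too low to be tested, and Erbb4 had 3 counts in all 12 libraries together. So 0 of 3 tested genes of this list were called between hosts by edgeR, DESeq2 or limma-voom, which called 1.37%, 7.94% and 12.3% of all genes. At an unadjusted edgeR p under 0.05 there were 0, beside 20.6% of all genes.

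Of 72 tested genes of the wider pathway, in 5 lists chosen with earlier results of these data known, 2 were called by edgeR between hosts (2.78%, beside 1.37% of all genes). DESeq2 called 6 (8.33%, beside 7.94% of all genes) and limma-voom 16 (22.2%, beside 12.3%), and 22 had an unadjusted edgeR p under 0.05, beside 20.6% of all genes. Gab1, a docking protein that carries signals from receptors to RAS and PI3 kinase, rose with a log2 fold change of 0.75 (SE 0.16, adjusted p = 0.0475). It was at 20.9, 34.1 and 38.4 CPM in WT => WT, 32.0, 32.9 and 43.6 in St2-/- => WT, 59.1, 59.8 and 42.5 in WT => St2-/- and 59.8, 62.2 and 56.7 in St2-/- => St2-/-. Of the St2-/- hosts, 5 of 6 were above all WT hosts. Spry1, an inhibitor of receptor tyrosine kinase signalling, rose by 0.59 (SE 0.13, adjusted p = 0.0493). It was at 20.0, 18.2 and 21.0 CPM in WT => WT, 19.9, 19.2 and 21.1 in St2-/- => WT, 26.8, 38.6 and 26.6 in WT => St2-/- and 24.4, 32.8 and 30.7 in St2-/- => St2-/-, without overlap between hosts, as were 0.963% of all genes in this direction.

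Both calls stood close to the threshold. The call of Gab1 was kept without St2-/- => WT replicate 3 or WT => St2-/- replicate 3 and was lost without any 1 of the other 10 libraries, with log2 fold changes of 0.66 to 0.84 and adjusted p of 0.0523 to 0.138. The call of Spry1 was kept without WT => St2-/- replicate 1 and was lost without any 1 of the other 11 libraries, at 0.49 to 0.66 and adjusted p of 0.0563 to 0.160. With the epithelial score as a covariate the values were 0.58 (adjusted p = 0.306) for Gab1 and 0.42 (adjusted p = 0.347) for Spry1.

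Between hosts, edgeR, DESeq2 and limma-voom called 1.37%, 7.94% and 12.3% of all genes. By list and by edgeR, 1 of 20 adaptors and RAS-MAPK genes rose (Gab1) and 0 fell, with a median log2 fold change of 0.02. DESeq2 called 1 of them higher and 1 lower (Grb2, an adaptor that binds the receptors), and limma-voom 4 higher and 1 lower. Of 16 feedback inhibitors edgeR called 1 higher (Spry1) and 0 lower, DESeq2 2 higher and 2 lower, and limma-voom 3 higher and 4 lower. The median of this list was 0.04, with 9 genes above and 7 below 0. Chosen after its values were seen, Dusp5, a phosphatase that inactivates ERK, was at -0.97 (SE 0.31, edgeR adjusted p = 0.135) and was called by both other tools. Of 15 genes of sheddases and trafficking 0 were called by edgeR and DESeq2 and 1 by limma-voom, with 2 at an unadjusted edgeR p under 0.05 (20.6% of all genes). These were Rhbdl2, an intramembrane protease, at -0.71 (SE 0.27, adjusted p = 0.189) and the metalloprotease gene Adam9 at -0.39 (SE 0.17, adjusted p = 0.235). Of 18 immediate early and MAPK output genes 0 were called by edgeR and DESeq2, 3 by limma-voom (12.3% of all genes) and 4 at an unadjusted edgeR p under 0.05 (20.6% of all genes), with a median of -0.09. Atf3, a stress-induced transcription factor gene, was at -0.79 (SE 0.29, adjusted p = 0.171) and Plaur, the urokinase receptor gene, at -0.66 (SE 0.25, adjusted p = 0.188).

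**Figure D5:**
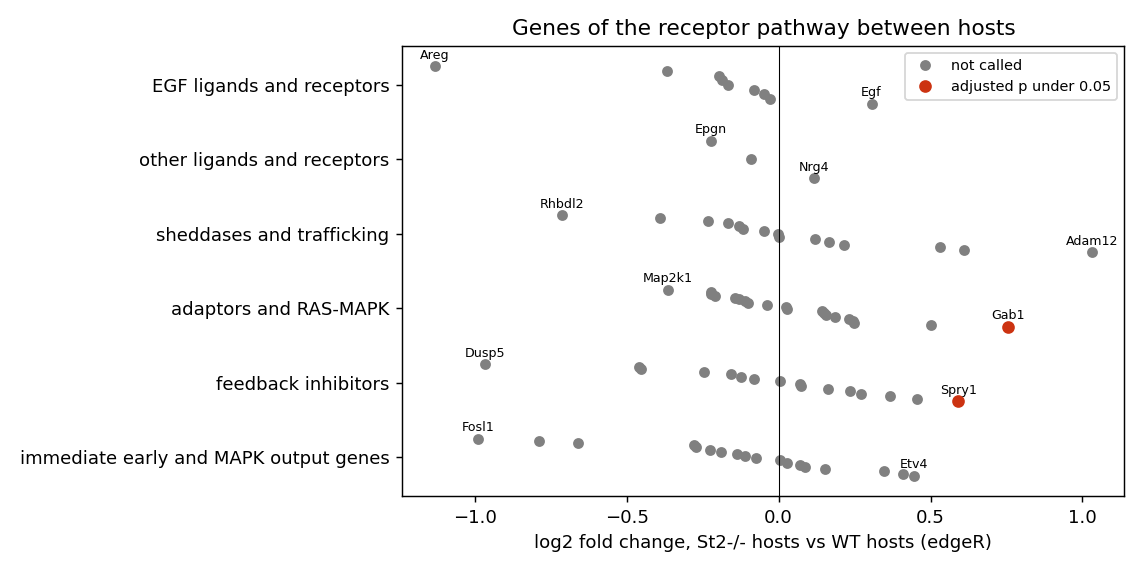
Log2 fold changes of St2-/- hosts against WT hosts (x axis, edgeR) for the 9 genes and the tested members of 5 pathway lists (rows, each point is a gene, the lowest and highest of a list are named). Gab1 (0.75) and Spry1 (0.59) are the called genes, and Areg (-1.13) is the lowest point of all.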

How the data were processed

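RNA of 12 tumours was sequenced as single-end TruSeq libraries, per the labels' protocols. The submitters' processing notes name TopHat, Bowtie2 and the build GRCm38 (mm10). Tool versions, the counter and its strand setting are not stated in the labels. The authors deposited counts of reads, not normalized, for 24062 genes, and 0 columns lacked a sample. Another 5 summary entries held 49.8% to 59.6% of a library and were left out. The members and gene lists were chosen with earlier results of these data known. The replicates are labelled biological.

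Counts were tested with edgeR 4.0.16 in R 4.3.3 (filterByExpr with a minimum count of 10, 15060 genes kept, TMM factors 0.899 to 1.12, robust quasi-likelihood, 1 coefficient per group, all 12 libraries, two-sided). Calls needed an adjusted p under 0.05 (Benjamini-Hochberg, over all genes tested). Log2 CPM used a prior count of 2. Correlations used 100000 permutations of all 12 libraries, without regard to host or marrow, two-sided. Alternatives were DESeq2 1.42.0, limma 3.58.1 (voom), other filters and size factors, covariates, a replicate block, and libraries left out. Lengths came from GENCODE M21. On simulated counts of 14877 genes for the host comparison, 65% of 2-fold and 87% of 4-fold changes were recovered, with 7 false among 159 calls. All 9 genes, called or not, were named. Of each pathway list, called genes, or else the 2 with the smallest p between hosts, were named, and for each of the 9 genes the 3 most alike, leaving out predicted genes, clones and pseudogenes.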

Additional observations from a re-analysis of the deposited data

How the results depend on the processing

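Under 22 alternative settings the log2 fold change of Areg between hosts stayed below 0, and 2 of these settings called it (DESeq2 and limma-voom). The number of the 9 genes called was 1 with DESeq2 and 1 with limma-voom between hosts, and with limma-voom 2 between hosts under St2-/- marrow and 1 between St2-/- => St2-/- and WT => WT. In all other settings it was 0, also without any 1 library (0 to 0). Over all genes, edgeR, DESeq2 and limma-voom called 206, 1196 and 1858 between hosts, 24, 746 and 314 under WT marrow, 9, 262 and 2004 under St2-/- marrow and 4, 473 and 1722 for St2-/- => St2-/- against WT => WT; the cause was not tested. They called 0, 17 and 4 between marrows in St2-/- hosts, and 0, 93 and 4 for the difference of the host effects. Under WT marrow, Areg was at -0.32 without WT => St2-/- replicates 2 and 3 and at -0.44 with the smooth muscle score as a covariate; under St2-/- marrow it was at -0.46 with the epithelial score and at -2.05 with the smooth muscle score. Small fold changes turned their direction, and the cause was not tested. With the epithelial score as a covariate, the values between hosts were 0.14 for Tgfa, 0.22 for Btc, 0.40 for Egfr, 0.29 for Erbb2 and 0.73 for Erbb3, and Egf under St2-/- marrow was at 0.29. With it, the difference of the host effects on Areg was 0.25, and Areg between marrows was at -0.0447. Smooth muscle scores were 8.06 and 6.96 in WT => St2-/- replicates 2 and 3. They were 7.73 and 6.83 in St2-/- => WT replicates 1 and 2, which were kept. Without the former pair, the values between hosts were Tgfa 0.18, Btc 0.10, Egfr 0.14, Erbb2 0.0426 and Erbb3 0.16. Between marrows they were then -0.27 for Areg, 0.10 for Ereg, -0.16 for Hbegf, -0.0509 for Tgfa, -0.13 for Egfr and -0.14 for Erbb3. Hbegf under WT marrow was at 0.32 without WT => St2-/- replicates 2 and 3 and at 0.19 with the smooth muscle score. Limma-voom gave 0.0778 for Erbb2 between hosts and -0.15 for Areg between marrows, and weeks after AOM as a covariate gave -0.0347 for Areg between marrows. With 1 library left out, values between hosts ranged from -0.19 to 0.12 for Ereg, -0.19 to 0.0283 for Tgfa, -0.11 to 0.0942 for Erbb2 and -0.44 to 0.12 for Erbb3. Between marrows they ranged from -0.20 to 0.22 for Areg, -0.28 to 0.0378 for Ereg, -0.13 to 0.30 for Hbegf and -0.14 to 0.24 for Egf, and Egf under St2-/- marrow ranged from -0.55 to 0.023. Levels per kilobase with the longest transcript were 17.7 for Hbegf, 19.1 for Tgfa and 0.379 for Egf, since their exons together are longer than that transcript. The call of Spry1 was also lost with DESeq2 size factors (adjusted p = 0.0524), without a filter (0.0602) and with weeks after AOM (0.082).

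Samples with the same replicate number did not deviate together (correlations of -0.50 to 0.28 over 2000 genes, against -0.42 to 0.53 for other numbers). This gave no sign that the numbers pair the tumours, but with ranges that overlap it cannot exclude it. With the replicate block, Areg between hosts was at -1.13 (SE 0.36, edgeR adjusted p = 0.166), Areg between marrows at -0.011, Gab1 at 0.77 and Spry1 at 0.58 (adjusted p = 0.0795 each), and 0 of the 9 genes were called. With 6 tumours of each host genotype, 65% of 2-fold and 87% of 4-fold changes between hosts were recovered on simulated counts. Differences of these sizes, and smaller ones, may therefore be missed. Changes were planted only in genes above a minimum count, and comparisons of 3 tumours with 3 were not simulated. Egf, with 10 to 39 counts in a library, is limited by depth.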
